A study of Mus musculus with 9 samples.

Results

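The fibroblast growth factor (FGF) genes described here are 6 ligand genes, Fgf1, Fgf2, Fgf7, Fgf9, Fgf10 and Fgf12, and the 4 receptor genes Fgfr1, Fgfr2, Fgfr3 and Fgfr4. They were chosen by name and make up 10 of the 24453 genes in the expression file. Each was followed by RNA sequencing in quiescent hepatic stellate cells (HSCs) and in collagen-producing fibroblasts from 2 mouse models of liver fibrosis.

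FGFs are secreted proteins that bind receptor tyrosine kinases at the cell surface together with heparan sulfate, and the bound receptors switch on the Ras-MAP kinase and PI3 kinase-Akt cascades. Alternative splicing of the third immunoglobulin-like domain of FGFR1, FGFR2 and FGFR3 sets which ligands a receptor accepts, so that FGF7 and FGF10, made mainly by mesenchymal cells, act on the epithelial form of FGFR2, whereas FGF9 prefers the mesenchymal forms. Hepatic stellate cells are the vitamin A-storing pericytes of the sinusoid and a main source of the myofibroblasts that lay down collagen in fibrosis.

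The HSC group held 3 libraries of stellate cells obtained by density gradient from healthy livers of untreated wild-type C57BL/6J mice. The CCl4-fib group held 3 libraries of CD45- GFP+ cells sorted from Col1a2-GFP Tg mice given carbon tetrachloride into the peritoneum 2 times a week for 8 weeks. The NASH-fib group held 3 libraries of cells sorted in the same way from MC/COL mice, which carry the same transgene and lack the melanocortin 4 receptor (MC4R-KO), males that ate a Western diet for 20 weeks from 8 weeks of age. Each library was made from the pooled cells of 3 to 5 mice, so n counts pools, and GFP in these mice is driven by the collagen α2(I) promoter. The sort kept cells with an active collagen promoter, whereas HSCs were not sorted, and isolation, transgene and injury therefore cannot be told apart between HSCs and either fibroblast group. The MC4R deletion, the diet and the agent likewise cannot be told apart between NASH-fib and CCl4-fib.

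The values are normalized read counts, on a scale on which every library sums to between 4471988 and 4471995. The reads assigned to genes numbered 3071070 to 3825522 in HSCs, 4687349 to 5634273 in CCl4-fib and 3289758 to 5021156 in NASH-fib, and 3 reads corresponded to a value of 2.38 to 4.37 depending on the library. Libraries of one group correlated with Pearson's r of 0.751 to 0.920 across genes, lowest between NASH-fib replicates 1 and 2. The defining stellate cell marker Lrat lay at 7070 to 14894 in HSCs and at 95.4 to 458 in the fibroblast libraries, and Acta2 lay at 40.8 to 93.5 and 5300 to 8983. The pools were not pure. Summed over 15 hepatocyte markers, all detected in every library, the values were 25546 to 51828 in HSCs, 2650 to 4018 in CCl4-fib and 8884 to 37289 in NASH-fib. Sums for 8 mesothelial markers were 617 to 1005, 16948 to 24541 and 25735 to 32265, and those for 11 sinusoidal endothelial markers were 8701 to 17601, 321 to 394 and 1390 to 4390. In such bulk libraries, fewer cells of a type and less RNA per cell cannot be told apart.

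**Figure D1:**
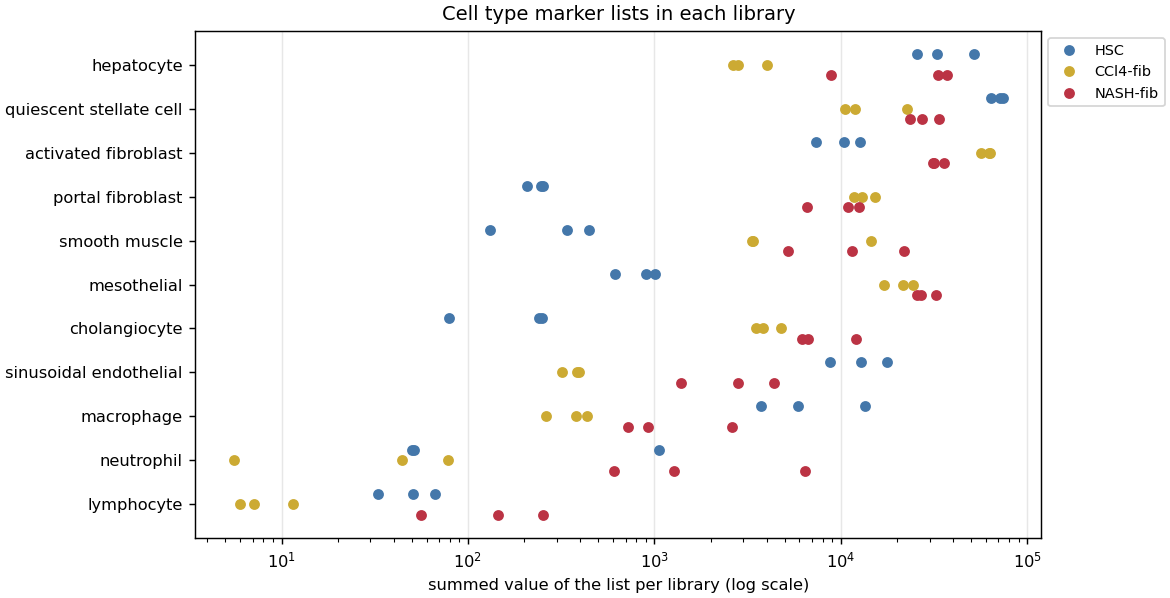
Summed normalized value (log axis) of 11 cell type marker lists, with 1 point per library and 3 libraries per group. Quiescent stellate markers were at 63803 to 73946 in HSCs and at 10517 to 33572 in both fibroblast groups, while portal fibroblast, smooth muscle, mesothelial and cholangiocyte markers lay higher in every fibroblast library than in any HSC library.

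Ligand and receptor genes differed from HSCs in both directions. Fgfr2 was the most abundant of the 10 genes per kilobase in HSCs and was lower in both fibroblast groups, and Fgf12 was lower too. Fgf9 and Fgf7 were higher in both fibroblast groups. Fgf10 passed the test given below only in NASH-fib, and Fgfr1 and Fgf1 only in CCl4-fib. None of these genes passed it between the models, and the Fgf1 mean was 3.06-fold above HSCs in NASH-fib and 3.23-fold in CCl4-fib. Between the fibrosis models, Fgf9 and Fgf12 were higher in NASH-fib. A gene was called when limma, fitted to log2(value + 1) over all 9 libraries, gave an absolute log2 fold change of 1 or more with a Benjamini-Hochberg adjusted p under 0.05 over the 13651 genes that passed a filter on low counts.

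Of the 10 genes, 8 passed the filter, and Fgf2 and Fgfr4 did not. In NASH-fib against HSCs, 3 of the 8 were called higher and 2 lower, while 12.5% of all genes tested were called, 8.23% higher and 4.30% lower. In CCl4-fib against HSCs, 4 were called higher and 2 lower, with 27.8% of all genes called, 16.2% higher and 11.7% lower. In NASH-fib against CCl4-fib, 2 were called higher and 0 lower, with 10.6% of all genes called, 4.97% higher and 5.66% lower. Of these calls over all genes, 46.7% were higher in NASH-fib, and 58.8% were with edgeR. DESeq2 and edgeR also called 2 higher and 0 lower between the models, and Fgfr1, with a lower mean in NASH-fib, had an unadjusted p of 0.0244 in limma. In each of the 3 comparisons, 6 of the 8 genes had libraries that did not overlap between the groups, against 24.4%, 48.6% and 39.1% of all genes in the same order. The median log2 fold change of the 8 genes was 1.42, 2.01 (1.76 with Fgf10 set to the lower bound of its fold change) and 1.80, beside -0.02, 0.18 and -0.11 over all genes tested. Fgf9 and Fgf10 had under 10 reads in every HSC library and Fgf12 in every CCl4-fib library, so that they passed the filter through the groups in which they were higher, and these counts and medians describe the tested genes and carry no test. The comparisons with HSCs share the 3 HSC libraries and are given side by side.

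**Figure D2:**
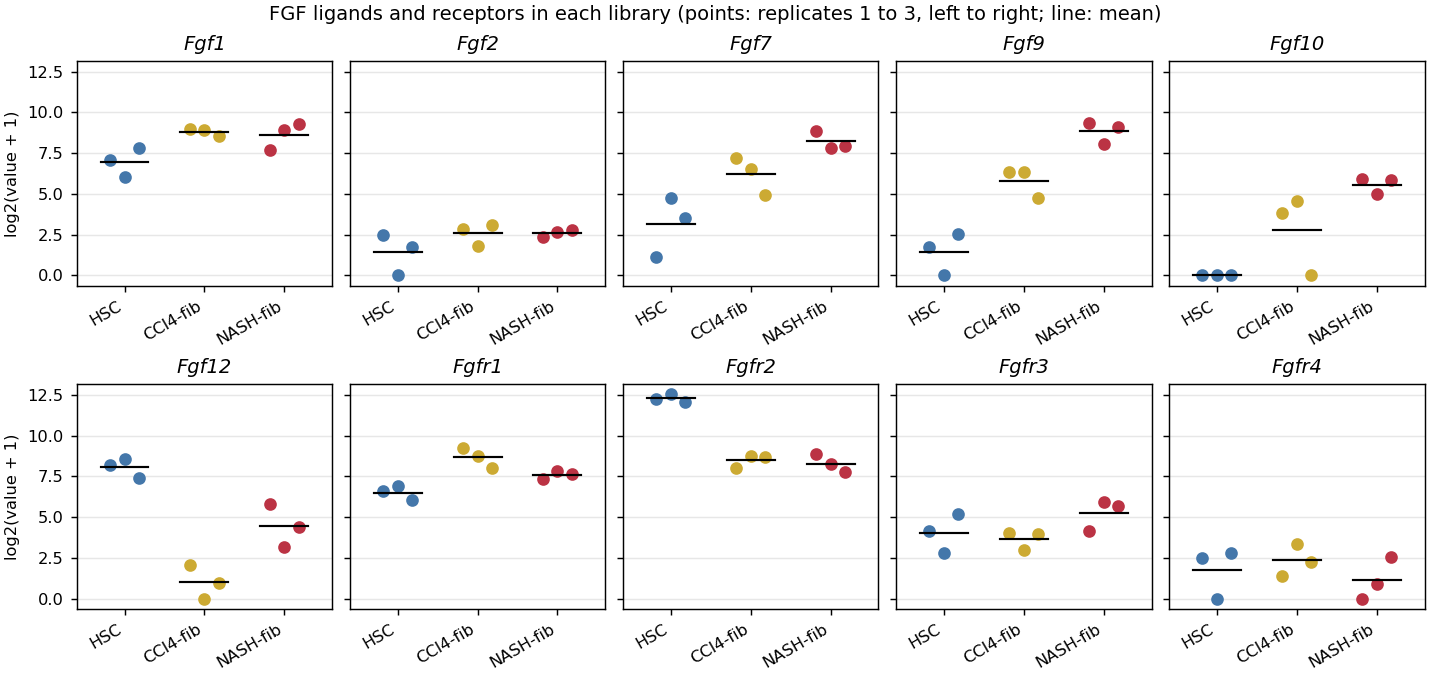
Level of each of the 10 genes as log2(normalized value + 1) in the 3 libraries of each group, with points for replicates 1 to 3 from left to right and a line at the mean of the log2 values. Fgfr2 and Fgf12 were highest in HSCs, and Fgf7, Fgf9 and Fgf10 were highest in NASH-fib.

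Fgf9 (NM_013518, chr14:58072686-58112720, mm10, plus strand) encodes a secreted ligand known from the epithelium and mesothelium of the developing lung. It stood at 2.34, 0 and 4.78 in HSC replicates 1, 2 and 3, at 81.8, 80.0 and 25.8 in CCl4-fib and at 652.5, 269.9 and 560.2 in NASH-fib. All NASH-fib libraries lay above all CCl4-fib libraries, which lay above all HSC libraries, where the gene had 6 reads in total. The means were 2.37 ± 2.39, 62.5 ± 31.8 and 494 ± 200 (SD, n = 3), and against the value of 3 reads per HSC library, which lies above the HSC mean, NASH-fib was at least 129-fold and CCl4-fib at least 16.4-fold higher. The log2 fold change against HSCs was 7.43 (SE 0.73, limma adjusted p = 0.000109) in NASH-fib and 4.39 (SE 0.73, limma adjusted p = 0.00155) in CCl4-fib.

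Between the models Fgf9 was 7.91-fold higher in NASH-fib, a log2 fold change of 3.04 (SE 0.73, limma adjusted p = 0.0286). This call did not hold without CCl4-fib replicate 1 (limma adjusted p = 0.0640), CCl4-fib replicate 2 (0.0840), CCl4-fib replicate 3 (0.0944), NASH-fib replicate 1 (0.0787) or NASH-fib replicate 3 (0.0942), or with a pseudocount of 0.5 (0.0502), with log2 fold changes of 2.50 to 3.31 in these fits. Mesothelial marker sums were also higher in every fibroblast library than in HSCs, and their part in the Fgf9 difference was not tested. The single markers differed between the models. Of the 8, Gpm6a was higher in every NASH-fib library than in any CCl4-fib library, Upk3b, Krt19 and Wt1 were lower in every NASH-fib library, and the other 4 overlapped. NASH-fib replicate 1 had the highest Fgf9 value and a Msln value of 934, below the 2298 to 5220 of the CCl4-fib libraries, while Msln reached 8041 and 10679 in the other NASH-fib libraries. Gpm6a was at 21261, 11014 and 13786 in NASH-fib and so was ordered as Fgf9 was, and at 6053 to 7605 in CCl4-fib. Other lists also separated the models. In every NASH-fib library, 6 of 8 cholangiocyte, 11 of 15 hepatocyte and 10 of 11 sinusoidal endothelial markers were above all CCl4-fib libraries. Of the rest, 1 cholangiocyte marker was lower and the others overlapped. Cholangiocyte sums were 12032, 6206 and 6650 in NASH-fib and 3500, 4780 and 3817 in CCl4-fib. The part of these cell types in the Fgf9 difference was not tested either. A date-like prefix in the library descriptions, 11-3, occurred once in each group, with Fgf9 at 0 in HSC replicate 2, 81.8 in CCl4-fib replicate 1 and 652.5 in NASH-fib replicate 1. The labels do not say what the prefix marks. Deviations from the group means were compared on log2(value + 1) over genes with a mean value above 20. Those of HSC replicate 2 and NASH-fib replicate 1 correlated with r = 0.707, the largest of all pairs of libraries from different groups. CCl4-fib replicate 1 correlated with them at -0.087 and -0.144. With the prefix as a term in the fit, Fgf9 was still called between the models (limma adjusted p = 0.0346).

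Fgf7 (NM_008008, chr2:126034658-126091185, mm10, plus strand), the keratinocyte growth factor gene, had values of 1.17, 26.2 and 10.8 in the HSC libraries, 145.3, 90.2 and 29.6 in the CCl4-fib libraries and 462.2, 227.1 and 249.6 in the NASH-fib libraries. No 2 groups overlapped, although the lowest CCl4-fib library was only slightly above the highest HSC library. The means were 12.7 ± 12.6, 88.3 ± 57.9 and 313 ± 130 (SD, n = 3). Fgf7 rose in NASH-fib against HSCs with a log2 fold change of 5.07 (SE 0.88, limma adjusted p = 0.00323), 24.6-fold between the means. It rose in CCl4-fib with a log2 fold change of 3.07 (SE 0.88, limma adjusted p = 0.0264), a call lost without HSC replicate 1 (0.0760), CCl4-fib replicate 1 (0.107) or CCl4-fib replicate 2 (0.0869). The 3.54-fold higher mean in NASH-fib than in CCl4-fib did not pass, with a log2 fold change of 2.01 (95% interval 0.05 to 3.96, limma adjusted p = 0.164).

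Fgf10 (NM_008002, chr13:118714699-118792573, mm10, plus strand) encodes a close relative of FGF7 that directs epithelial branching in lung and other organs. It had 0 reads in all HSC libraries, values of 13.5, 23.0 and 0 in CCl4-fib, and values of 58.5, 30.3 and 57.0 in NASH-fib. The NASH-fib libraries lay above all others, and CCl4-fib replicate 3 was at 0 like the HSC libraries. Set against the value of 3 reads per HSC library, the mean was at least 12.7-fold higher in NASH-fib (48.6 ± 15.9, SD, n = 3), which passed the test (limma adjusted p = 0.00537). The CCl4-fib mean (12.2 ± 11.5, SD, n = 3) was at least 3.18-fold higher and did not pass (limma adjusted p = 0.0718). It passed with DESeq2 (adjusted p = 0.00251), with edgeR (adjusted p = 0.0387) and, in limma, without CCl4-fib replicate 3 (adjusted p = 0.00282). NASH-fib was 4.00-fold above CCl4-fib, with a log2 fold change of 2.76 (95% interval 0.42 to 5.10, limma adjusted p = 0.119). An antisense gene, Gm16263, shares 123 exonic bases with Fgf10, and reads of both strands were counted.

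Of the 10 genes, 8 had an entry in the RefSeq promoter table for GRCm38.p6, the RefSeq name of mm10, and Fgf1 and Fgfr1 had none. The 250 bases before the start are printed for Fgf9, Fgf7 and Fgf10, the ligand genes that rose in NASH-fib, and for Fgfr2, the receptor gene that fell. They are written in the direction of the gene, in lower case, with motif matches in capitals.
Fgf9, chr14:58072436-58072685, plus strand: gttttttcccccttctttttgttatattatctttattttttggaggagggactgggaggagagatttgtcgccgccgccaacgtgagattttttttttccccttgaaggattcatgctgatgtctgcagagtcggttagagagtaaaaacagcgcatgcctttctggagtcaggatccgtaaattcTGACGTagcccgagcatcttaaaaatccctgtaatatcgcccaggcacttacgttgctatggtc
Fgf7, chr2:126034408-126034657, plus strand: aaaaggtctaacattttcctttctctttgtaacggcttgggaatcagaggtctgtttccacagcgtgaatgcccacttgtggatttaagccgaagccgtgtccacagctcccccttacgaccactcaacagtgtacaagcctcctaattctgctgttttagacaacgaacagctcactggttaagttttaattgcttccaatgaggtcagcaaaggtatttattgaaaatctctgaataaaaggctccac
Fgf10, chr13:118714449-118714698, plus strand: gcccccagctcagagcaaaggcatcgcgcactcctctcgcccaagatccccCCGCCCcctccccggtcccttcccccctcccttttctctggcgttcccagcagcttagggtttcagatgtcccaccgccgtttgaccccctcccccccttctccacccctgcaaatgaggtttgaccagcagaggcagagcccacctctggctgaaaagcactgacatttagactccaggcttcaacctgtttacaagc
Fgfr2, chr7:130266809-130267058, minus strand: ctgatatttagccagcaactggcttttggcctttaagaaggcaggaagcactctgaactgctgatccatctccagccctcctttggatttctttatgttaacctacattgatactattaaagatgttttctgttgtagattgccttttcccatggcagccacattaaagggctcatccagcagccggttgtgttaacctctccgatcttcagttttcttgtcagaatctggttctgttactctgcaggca
Both strands were searched for an AP-1 site (TGANTCA), a TEAD site (GGAATG), a cAMP response element half-site (TGACGT), a GC box (GGGCGG) and a CArG box. The Fgf9 window held 1 half-site, 64 to 59 bases before the start, and 6.47% of 32851 promoter windows held one. The Fgf10 window held 1 GC box, read on the opposite strand 199 to 194 bases before the start, as did 32.7% of all windows. The Fgf7 and Fgfr2 windows held none of the 5 motifs. The shares of windows with an AP-1 site, a TEAD site and a CArG box were 6.75%, 12.6% and 1.47%. Such matches describe the letters of these windows and not the binding of a factor.

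Fgf1 (NM_010197) encodes acidic FGF, a ligand without a classical signal peptide that can bind all FGF receptors. Its values were 135.6, 64.1 and 224.8 in the HSC libraries, 512.7, 483.1 and 376.9 in the CCl4-fib libraries and 205.3, 475.6 and 616.2 in the NASH-fib libraries. Every CCl4-fib library lay above every HSC library, whereas NASH-fib replicate 1 fell within the HSC range. The means were 141 ± 80.5, 458 ± 71.5 and 432 ± 209 (SD, n = 3). Fgf1 rose in CCl4-fib with a log2 fold change of 1.85 (SE 0.53, limma adjusted p = 0.0254), but the call was lost without HSC replicate 1 (0.0597), HSC replicate 2 (0.0805), CCl4-fib replicate 1 (0.0852), CCl4-fib replicate 2 (0.0818) or CCl4-fib replicate 3 (0.0505). In NASH-fib the log2 fold change against HSCs was 1.64 (SE 0.53, limma adjusted p = 0.0728). That difference passed without NASH-fib replicate 1 (log2 fold change 2.10, limma adjusted p = 0.0159), without HSC replicate 3 (limma adjusted p = 0.0374), with TMM scaling (limma adjusted p = 0.0498) and with DESeq2 (adjusted p = 0.0130). The models differed by a log2 fold change of -0.21 (95% interval -1.38 to 0.96, limma adjusted p = 0.816), the sign of which turned with DESeq2 and edgeR.

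Fgf2 (NM_008006, chr3:37348653-37404830, mm10, plus strand), the basic FGF gene, was near the detection limit in every library. It had values of 4.68, 0 and 2.39 in the HSC libraries, 6.35, 2.55 and 7.63 in the CCl4-fib libraries and 4.08, 5.34 and 5.90 in the NASH-fib libraries, from 0 to 8 reads a library. The 3 groups overlapped. The entry in the file covers 690 exonic bases, which is 10.2% of the 6782 exonic bases that GENCODE M21 annotates for the gene, so most of its transcript was not counted. Fgf2 also overlaps Nudt6 on the other strand and Gm43439 on the same strand.

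Fgf12 (NM_010199, chr16:28157783-28753243, mm10, minus strand) is grouped with the ligands by sequence, but it encodes a factor that stays inside the cell and is known to bind voltage-gated sodium channels. Its values were 295.8, 381.5 and 167.4 in the HSC libraries, 3.17, 0 and 0.95 in the CCl4-fib libraries and 55.7, 8.02 and 19.7 in the NASH-fib libraries. None of the groups overlapped, with NASH-fib between HSCs and CCl4-fib. The means were 282 ± 108, 1.37 ± 1.63 and 27.8 ± 24.9 (SD, n = 3), and the CCl4-fib libraries held 5 reads in total. Fgf12 fell by 7.05 on the log2 scale in CCl4-fib (SE 0.77, limma adjusted p = 0.000128), where the HSC mean was at least 108-fold higher against the value of 3 reads per CCl4-fib library. It fell by 3.61 in NASH-fib (SE 0.77, limma adjusted p = 0.0107), where the HSC mean was 10.1-fold higher, and this call was lost when the prefix of the library descriptions was added to the fit (limma adjusted p = 0.0702). NASH-fib stood at least 10.7-fold above CCl4-fib by the same measure, with a log2 fold change of 3.45 (SE 0.77, limma adjusted p = 0.0233). The call between the models did not hold without CCl4-fib replicate 2 (limma adjusted p = 0.0989), CCl4-fib replicate 3 (0.0623), NASH-fib replicate 1 (0.0613) or NASH-fib replicate 3 (0.0710), and the gene did not pass the filter when only these 2 groups were fitted.

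Summed sinusoidal endothelial and quiescent stellate markers were both higher in HSCs than in either fibroblast group, as Fgf12 and Fgfr2 were. Of 11 quiescent stellate markers, 7 were higher in every HSC library than in any CCl4-fib library and 7 than in any NASH-fib library, and others overlapped, such as Rgs5 at 14708 to 27511 in HSCs and 15987 to 29830 in NASH-fib. Of 11 endothelial markers, all 11 were higher in HSCs than in CCl4-fib in this way, and 9 than in NASH-fib. Within HSCs the endothelial sum was 12874, 8701 and 17601 in replicates 1, 2 and 3, highest in the library in which both genes were lowest and lowest in the library in which both were highest. The quiescent stellate sum was 71687, 73946 and 63803 in the same libraries and followed the order of both genes. The single markers did not share 1 order: of the 11 endothelial markers 7 were highest in HSC replicate 3 and 3, Lyve1, Cdh5 and Tek, in replicate 2, and of the 11 stellate markers 5 were highest in replicate 3 and 4 in replicate 2. The part of either cell type in the Fgf12 and Fgfr2 differences was not tested.

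Fgfr2 (NM_010207, chr7:130162451-130266808, mm10, minus strand) encodes the receptor whose splice forms take either FGF7 and FGF10 or FGF9, and the values per gene do not separate these forms. It stood at 4819, 5889 and 4298 in the HSC libraries, at 261.1, 421.9 and 403.6 in the CCl4-fib libraries and at 463.5, 300.1 and 214.3 in the NASH-fib libraries. Each HSC library lay far above every fibroblast library, and the fibroblast groups overlapped. The means were 5002 ± 811, 362 ± 88 and 326 ± 127 (SD, n = 3). Fgfr2 fell by 3.99 on the log2 scale in NASH-fib (SE 0.37, limma adjusted p = 7.94e-05) and by 3.8 in CCl4-fib (SE 0.37, limma adjusted p = 6.78e-05), which puts the HSC mean 15.3-fold and 13.8-fold higher. The difference between the models was -0.19 on the log2 scale (95% interval -1.01 to 0.62, limma adjusted p = 0.754), and its sign turned with DESeq2 and edgeR. A neighbouring gene on the same strand, Ctbp2, shares 314 annotated exonic bases with Fgfr2. The counted length of Fgfr2 equals 50.1% of its annotated exons, and whether the shared bases were counted was not checked.

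Fgfr1 (NM_001079908, chr8:25518759-25575718, mm10, plus strand) encodes the receptor typical of mesenchymal cells. Its values were 95.9, 116.5 and 64.6 in the HSC libraries, 597.7, 431.2 and 260.5 in the CCl4-fib libraries and 161.8, 220.9 and 202.5 in the NASH-fib libraries. No groups overlapped, and CCl4-fib was highest. The means were 92.3 ± 26.1, 430 ± 169 and 195 ± 30.3 (SD, n = 3). Fgfr1 rose in CCl4-fib with a log2 fold change of 2.17 (SE 0.41, limma adjusted p = 0.00297), 4.66-fold between the means. The log2 fold change of 1.10 in NASH-fib against HSCs (95% interval 0.20 to 2.0, limma adjusted p = 0.122) and that of -1.07 in NASH-fib against CCl4-fib (95% interval -1.97 to -0.17, limma adjusted p = 0.117) did not pass. An antisense gene, Gm16159, shares 164 annotated exonic bases with Fgfr1. The counted length of Fgfr1 equals 50.6% of its annotated exons, and whether the shared bases were counted was not checked.

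Fgfr3 (NM_001163215, chr5:33721724-33737068, mm10, plus strand), a receptor gene known for its part in bone growth, had low values of 16.4, 5.82 and 35.9 in the HSC libraries, 15.1, 6.80 and 14.3 in the CCl4-fib libraries and 16.3, 59.7 and 50.1 in the NASH-fib libraries. The HSC range overlapped both fibroblast groups, while the NASH-fib libraries lay above those of CCl4-fib, the lowest by little. No difference passed, with log2 fold changes of 1.21 in NASH-fib against HSCs (limma adjusted p = 0.416), -0.40 in CCl4-fib against HSCs (limma adjusted p = 0.718) and 1.60 in NASH-fib against CCl4-fib (95% interval -0.06 to 3.26, limma adjusted p = 0.187). An annotated transcript on the other strand, G630022F23Rik, shares 998 annotated exonic bases with Fgfr3. The counted length of Fgfr3 equals 59.0% of its annotated exons, and whether the shared bases were counted was not checked.

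Fgfr4 (NM_008011, chr13:55152818-55168759, mm10, plus strand), the receptor gene typical of hepatocytes, was at 4.68, 0 and 5.98 in the HSC libraries, 1.59, 9.36 and 3.82 in the CCl4-fib libraries and 0, 0.89 and 4.91 in the NASH-fib libraries. These values lay around that of 3 reads, and the groups overlapped. Hepatocyte transcripts were present in the same libraries, with the albumin gene Alb at 9062 to 14161 in HSCs and 1787 to 14897 in NASH-fib. Klb, which encodes the co-receptor that FGFR4 uses for endocrine FGFs, was at 2.34 to 4.37 in HSCs and at 0 in all fibroblast libraries. When genes of low count were kept, Fgfr4 and Fgf2 were not called in any comparison (limma adjusted p of 0.290 to 1).

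**Figure D3:**
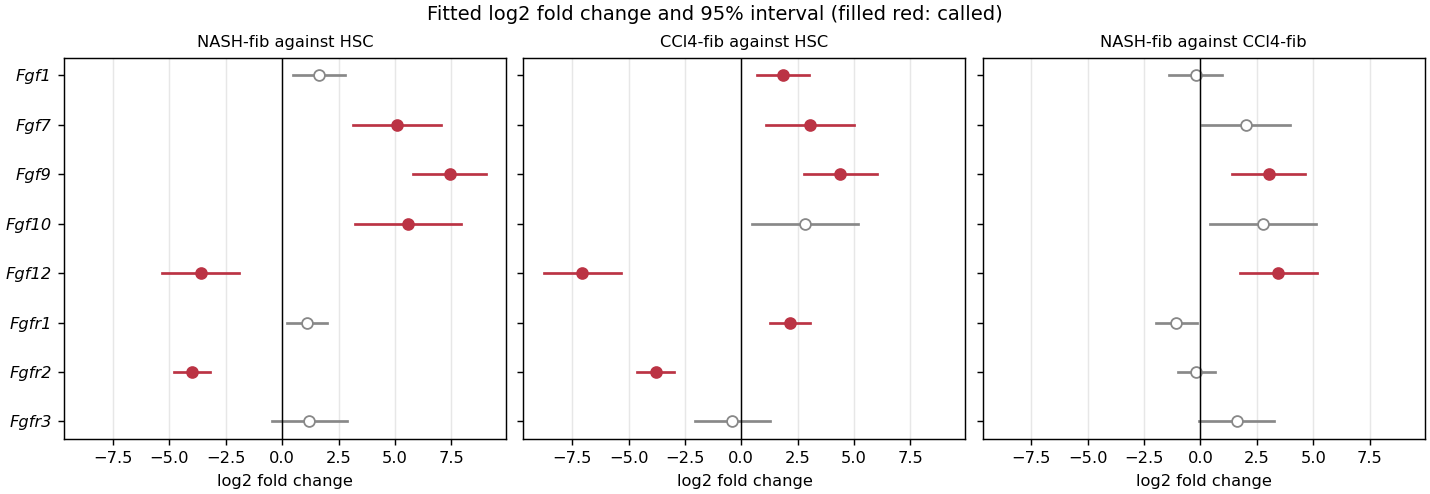
Fitted log2 fold change (limma, log2(value + 1)) of the 8 tested genes in the 3 comparisons, with 95% intervals as bars and called genes in filled red. Fgf9, Fgf7 and Fgf10 lie to the right and Fgf12 and Fgfr2 to the left in NASH-fib against HSCs, and the fitted Fgf10 points against HSCs, where it had 0 reads, depend on the pseudocount.

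To compare genes, values were expressed as reads per kilobase of counted exon, scaled to the reads on all genes of the library (RPKM). In HSCs, mean RPKM was 216 for Fgfr2, 11.7 for Fgf12 and 8.11 for Fgf1, and 4.13 or less for the other genes. In CCl4-fib the order of the means was Fgf1 (26.2), Fgfr1 (19.2), Fgfr2 (15.6) and Fgf7 (7.41), with SDs of 4.09, 7.54, 3.8 and 4.85. Fgf1 lay above Fgfr1 and above Fgfr2 in every CCl4-fib library, while the order of Fgfr1 and Fgfr2 differed between libraries. In NASH-fib, Fgf9 (26.7), Fgf7 (26.3) and Fgf1 (24.8) could not be ranked within SDs of 10.8, 10.9 and 12, and Fgfr2 (14.1) and Fgfr1 (8.72) followed. By mean RPKM, Fgf12 was the second of the 10 in HSCs and the last in CCl4-fib. In HSC replicate 3, however, Fgf1 (12.9) lay above Fgf12 (6.93).

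Shares within a library need no scaling between libraries. This measure was added after the data had been seen. Of the RPKM of the 4 receptors, Fgfr2 made up 97.5% ± 0.315 in HSCs, 44.7% ± 14.6 in CCl4-fib and 54.8% ± 14.6 in NASH-fib (SD, n = 3). Fgfr1 made up 1.84% ± 0.285, 52.5% ± 15.1 and 35.4% ± 8.66. For both genes the fibroblast shares did not overlap those of HSCs (exact two-sided permutation p = 0.1, the smallest that 3 against 3 allows, Benjamini-Hochberg adjusted p = 0.208 over 27 comparisons of shares), and the 2 fibroblast groups overlapped. Total receptor RPKM was 221 ± 35.2 in HSCs, 35.9 ± 4.98 in CCl4-fib and 25.2 ± 3.49 in NASH-fib.

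Among the 5 secreted ligands the mean shares also differed, but no difference passed (exact permutation, Benjamini-Hochberg adjusted p of 0.208 or more). Fgf1 made up 77.1% ± 12.8 of ligand RPKM in HSCs, 68.1% ± 8.57 in CCl4-fib and 31.4% ± 16 in NASH-fib (SD, n = 3). Fgf9 made up 1.03% ± 0.912, 8.16% ± 2.83 and 31.7% ± 8.32, with no overlap between any groups. Fgf7 made up 14.9% ± 19.7, 17.4% ± 8.10 and 31.9% ± 10.2, with overlap in all comparisons. Total ligand RPKM was 10.1 ± 4.50, 39.4 ± 10.5 and 81.8 ± 15.3. Summed receptor RPKM exceeded summed ligand RPKM in HSCs, and ligand RPKM exceeded receptor RPKM in NASH-fib. In CCl4-fib the order differed between libraries, with ligand sums of 48.7, 41.5 and 27.9 beside receptor sums of 38.9, 38.5 and 30.1.

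**Figure D4:**
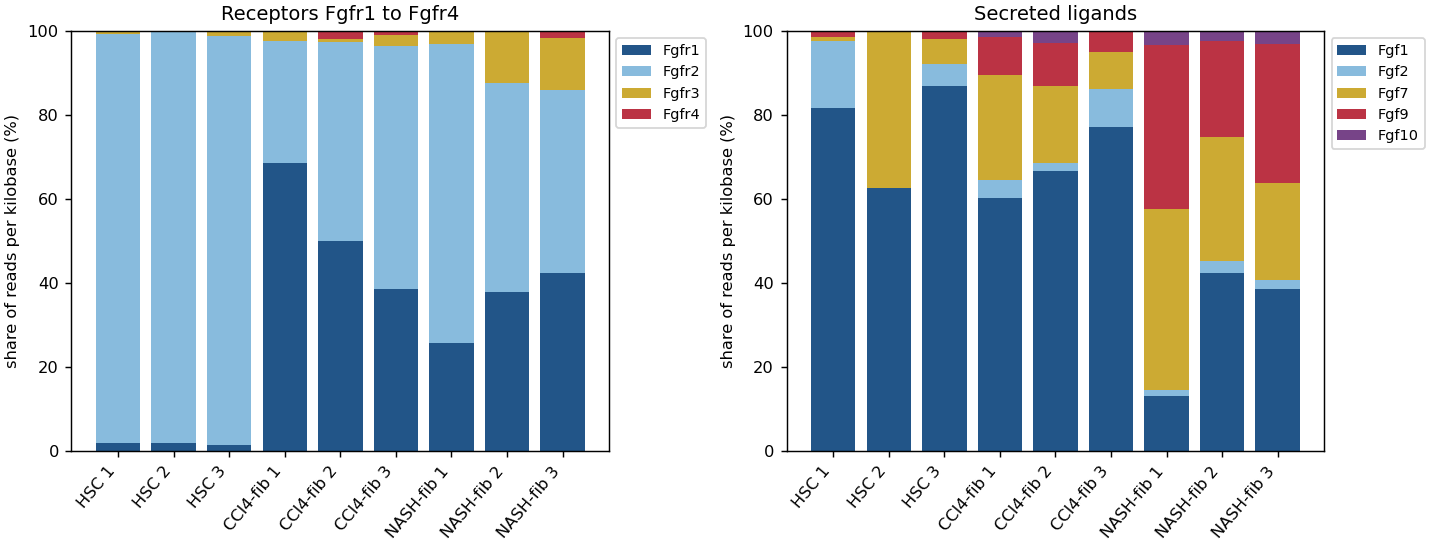
Share of each gene in the reads per kilobase of the 4 FGF receptors (left) and of the 5 secreted ligands (right), with 1 bar per library summing to 100%. Fgfr2 fills 97.3% to 97.9% of the receptor bars in HSCs, and Fgf9 fills 22.8% to 39.2% of the ligand bars in NASH-fib.

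For each tested gene, the genes with the most similar log2 values over the 9 libraries were listed as a description. These libraries fall into 3 groups, so the correlations follow the group means. Fgf9 was closest to Ptprq (Pearson's r = 0.993), Atp6v0a4 (0.979) and Slc4a4 (0.977). Ptprq averaged 1.19, 35.9 and 245 in HSCs, CCl4-fib and NASH-fib. Fgf7 was closest to Foxp2 (0.984), Mboat1 (0.982) and Ripk4 (0.968), and Fgf10 to Gpr1 (0.995), Bmpr1b (0.984) and another ligand gene, Fgf16 (0.972). Fgf12 was closest to Myct1 (0.995), Fam43a (0.987) and Rnf152 (0.986). Fgfr2 was closest to Plvap (0.988), which encodes a protein of endothelial fenestrae, Ccbe1 (0.985) and 1700063D05Rik (0.983). Fgf1 was closest to Lbp, Atp6v0e2 and Ptrf (all 0.986), Fgfr1 to Ehd2 (0.973), Fam46c (0.970) and Cs (0.965), and Fgfr3 to 9030025P20Rik (0.951), Efemp1 (0.923) and Sdcbp2 (0.923).

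The other genes of the FGF pathway were followed in 6 lists of 103 genes, of which 78 passed the filter. Of these, 18 rose and 3 fell in NASH-fib against HSCs, 22 rose and 11 fell in CCl4-fib against HSCs, and 1 was higher and 6 were lower in NASH-fib than in CCl4-fib. That is 26.9%, 42.3% and 8.97% of the list genes tested, beside the 12.5%, 27.8% and 10.6% of all genes. When each library was left out in turn, 15 of the 21 calls, 23 of the 33 and 1 of the 7 (Ier3) held throughout. Of 16 further ligand genes 4 were tested, of which Fgf11 and Fgf14 encode intracellular relatives of FGF12. Fgf11, Fgf14, Fgf16 and Fgf18 rose in NASH-fib and the same genes except Fgf16 in CCl4-fib, and 0 were called between the models by limma, DESeq2 or edgeR, with 1 at an unadjusted p under 0.05. All 4 genes had at most 8.37 in HSCs and passed the filter on low counts through the fibroblast libraries, so the count of 4 of 4 is a description. With each library left out in turn, the Fgf16 call held in 6 of 9 fits and the Fgf14 call in CCl4-fib in 5 of 9. Their median log2 fold change of 4.09 in NASH-fib became 2.72 with the 3 genes near 0 in HSCs set to their lower bounds. Fgf18, a ligand gene with a role in cartilage and bone, averaged 3.96 ± 4.2 in HSCs, 64.2 ± 46.5 in CCl4-fib and 63.9 ± 31.2 in NASH-fib (SD, n = 3).

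Among 8 tested co-receptors and binding proteins, 5 rose in NASH-fib and 6 in CCl4-fib against HSCs, and 0 fell. Calls made up 62.5% and 75% of this list, and 25% between the models, beside 12.5%, 27.8% and 10.6% of all genes. Sulf1, an enzyme that trims sulfate from heparan sulfate outside the cell, rose from 154 ± 99.7 to 2174 ± 322 in CCl4-fib and 4835 ± 1746 in NASH-fib (SD, n = 3). Sulf2, Ncam1 and Flrt2 rose in both models, Flrt1 in NASH-fib, and Flrt3 in CCl4-fib. The Flrt1 groups overlapped, and its call (limma adjusted p = 0.0404) held in 2 of 9 fits with 1 library left out. Ncam1, a cell adhesion molecule that can bind FGF receptors, averaged 40.7 ± 26.7 in HSCs, 4838 ± 1835 in CCl4-fib and 753 ± 178 in NASH-fib. Ncam1 (log2 fold change -2.64, limma adjusted p = 0.0140) and Flrt2 (-1.63, limma adjusted p = 0.0371) were lower in NASH-fib than in CCl4-fib, calls that held in 7 and 4 of 9 such fits.

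Of 18 tested enzymes of heparan sulfate synthesis, 2 rose and 2 fell in each model, and 14 were not called. The called share was 22.2% in each model, beside 12.5% of all genes in NASH-fib and 27.8% in CCl4-fib. The 3-O-sulfotransferase genes Hs3st3b1 and Hs3st3a1 fell, the former from 5686 ± 1352 in HSCs to 183 ± 87.3 in CCl4-fib and 184 ± 40.8 in NASH-fib (SD, n = 3). Another 3-O-sulfotransferase gene, Hs3st1, and the 6-O-sulfotransferase gene Hs6st2 rose. Hs3st1 went from 6.94 ± 5.14 to 119 ± 42.1 and 71.7 ± 18.4. Between means, Hs6st2, with 0 reads in HSCs, was at least 6.11-fold higher in CCl4-fib and 7.55-fold higher in NASH-fib. Its NASH-fib mean rested mostly on replicate 1, with values of 72.05, 2.67 and 11.79, beside 16.67, 31.47 and 21.94 in CCl4-fib. In NASH-fib replicate 2 it lay at the value of 3 reads. In NASH-fib, the Hs3st3a1 call held in 5 and the Hs6st2 call in 6 of 9 fits with 1 library left out.

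Of the 25 signal transducers, 0 were called in NASH-fib against HSCs by limma, DESeq2 or edgeR, with 3 at an unadjusted p under 0.05. Of all genes tested, 12.5%, 15.8% and 11.5% were called in that comparison by these methods in the same order. In CCl4-fib, the kinase genes Akt1 and Akt2 rose and Map2k1, Gab1, Pik3r1, Crk and Pik3ca fell. Calls made up 28% of the transducers there and 12% between the models, beside 27.8% and 10.6% of all genes tested. Akt1 averaged 84.1 ± 47.6 in HSCs, 264 ± 45.1 in CCl4-fib and 36.7 ± 16.5 in NASH-fib (SD, n = 3), and was lower in NASH-fib than in CCl4-fib, as was Akt2, while the MAP kinase kinase kinase gene Braf was higher. Of these transducer calls, that of Akt2 in CCl4-fib held in 9 of 9 fits with 1 library left out, and the others in 3 to 7 of 9. Among 11 tested feedback inhibitors, Il17rd rose and Spry1 fell in NASH-fib, and Cblb rose and Spry1, Spred2 and Cbl fell in CCl4-fib. The called shares were 18.2% and 36.4% of the inhibitors, beside 12.5% and 27.8% of all genes. The calls of Spry1 and Spred2 held in 9 of 9 fits with 1 library left out, and those of Il17rd, Cbl and Cblb in 4, 5 and 3. Spry1, a Sprouty gene whose product restrains Ras signalling below FGF receptors, averaged 830 ± 69.5, 68.9 ± 8.45 and 183 ± 105.

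Of 12 tested target genes, 6 rose in NASH-fib and 8 rose and 1 fell in CCl4-fib. Calls made up 50% and 75% of this list, and 16.7% between the models, beside 12.5%, 27.8% and 10.6% of all genes. Fos, Egr1, Egr2, Egr3 and Junb, immediate early genes that answer many stimuli besides FGF and also cell handling, rose in both. Fos averaged 94.7 ± 11.8 in HSCs, 4761 ± 1368 in CCl4-fib and 2785 ± 589 in NASH-fib (SD, n = 3). HSCs had not gone through the sort that both fibroblast groups had, and its part was not tested. Ier3 rose in CCl4-fib, and Ier2 and Ier3 were lower in NASH-fib than in CCl4-fib. The Ier2 call held in 5 of 9 fits with 1 library left out. Etv1, one of 3 ETS factor genes in the list that are known FGF targets, fell in CCl4-fib. Of the other two, Etv5 was not called in any comparison and Etv4 was at 0 to 5.34. Dusp6, a phosphatase gene of the feedback list, was not called either.

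**Figure D5:**
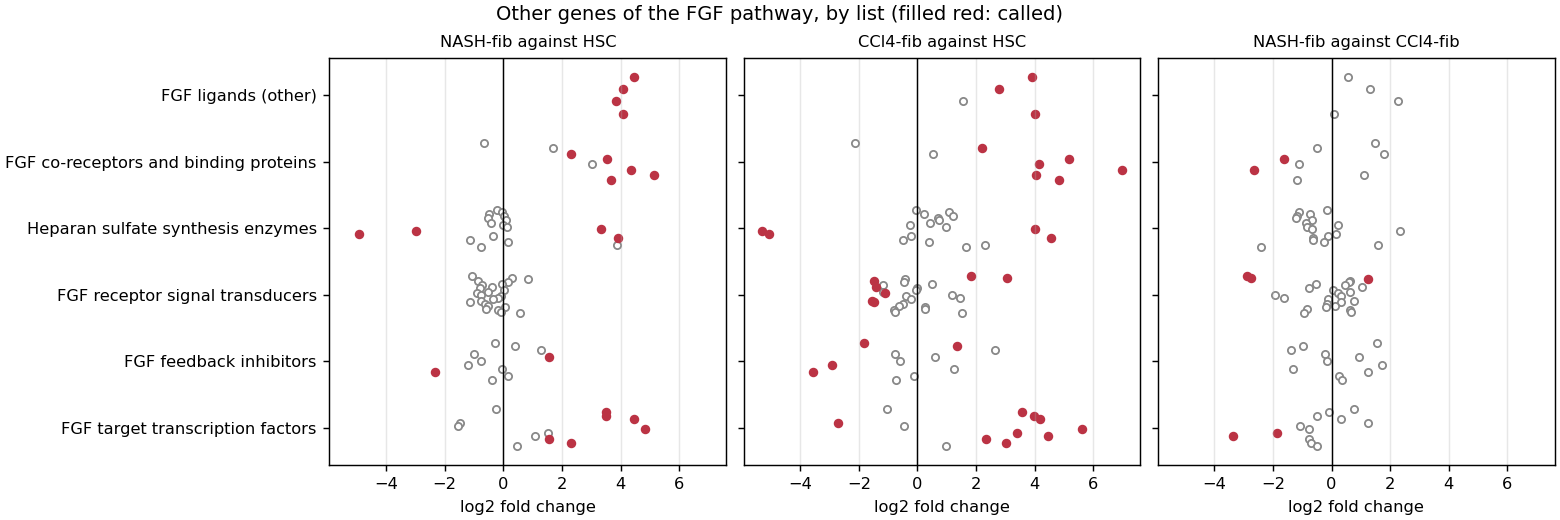
Fitted log2 fold change (limma) of 78 tested genes in 6 FGF pathway lists, with 1 point per gene and called genes in filled red. Co-receptors and target genes lie mostly to the right against HSCs. Signal transducers lie from -1.15 to 0.84 in NASH-fib against HSCs, and none of them was called, beside 12.5% of all genes tested.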

How the data were processed

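Cells pooled from 3 to 5 mice were profiled by single-end RNA sequencing after SMARTer amplification. Per the file headers and the study's methods, the authors aligned reads to mm10 with STAR (the submitters' notes also name CASAVA, versions not given in the sources used here), counted reads of either strand on RefSeq exons with HOMER, keeping up to 3 reads at a position and condensing transcripts to genes, and normalized 10 libraries together. One of these is not analysed here. The deposited values are a normalized signal per gene, in 9 value columns, of which 0 were not used. Dividing each column by the worth of 1 read gave whole reads for 100% of values (tolerance 0.05), and intervals cover the spread between pools only.

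Groups follow the labels, 3 libraries each. Within-group pairs differed by a chi-square of 18.6 to 99.6 per gene, where sampling noise gives about 1, so no library was counted as a copy. Where labels do not name separate cultures or animals, p-values measure the spread between these pools. The main test was limma 3.58.1 (R 4.3.3) on log2(value + 1), with all 3 groups in 1 fit and edgeR's filter at a minimum count of 10, and Benjamini-Hochberg adjustment over 13651 genes. Calls needed an absolute log2 fold change of 1 or more and an adjusted p under 0.05. Alternatives were DESeq2 1.42.0 and edgeR 4.0.16 on the recovered reads, TMM scaling, no filter, pseudocounts of 0.5 and 5, fitting 2 groups, a replicate block, the date-like prefix of the library descriptions as a term, and leaving out each library. The limma fit was tested on simulated data. Shares were tested by exact permutation.

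The genes and lists were chosen with earlier results of these data known. All 10 genes are named, with the 3 genes most alike each tested one. Called genes of each pathway list are named, at most 5 in each direction of a comparison. Junb is named beyond these in CCl4-fib against HSCs. Klb, Etv4, Etv5, Dusp6 and single marker genes were named after their values were seen. Gene models of GENCODE M21 and promoter windows of RefSeq (GRCm38.p6) were used. Same-numbered replicates of different groups did not deviate together: 1 of 9 pairs had a correlation over 0.1 (range -0.527 to 0.612).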

Additional observations from a re-analysis of the deposited data

Results flagged for a closer look

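Each of these differences between the 2 fibrosis models passed the test of the difference itself (limma, adjusted p under 0.05), so the change from HSCs to fibroblasts differed between the models. Fgf9 and Fgf12 were higher in NASH-fib than in CCl4-fib, with log2 fold changes of 3.04 and 3.45, Fgf9 being above HSCs in both models and Fgf12 below. Among co-receptors, Flrt2 (-1.63) and Ncam1 (-2.64) were lower in NASH-fib. Among signal transducers, Braf was higher (1.26), and Akt2 (-2.76) and Akt1 (-2.90) were lower. Among target genes, Ier2 (-1.85) and Ier3 (-3.37) were lower. Apart from Ier3, each of these calls was lost when 1 library or another was left out. Groups of 3 libraries are too small for a test of single libraries that stand apart.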

How the results depend on the processing

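Of 214 single-gene fits under other settings, 203 kept their direction and side of the threshold, as did 193 of 216 fits with 1 library left out. Under other settings 3 fits lost a call, 4 gained one and 4 turned sign. With 1 library left out, 17 lost a call, 3 gained one and 3 turned sign. Fgfr2, Fgf9, Fgf7 and Fgf10 in NASH-fib and Fgfr2, Fgf9, Fgf12 and Fgfr1 in CCl4-fib, all against HSCs, kept their call in every setting run. Turned signs, none of them in a called value, were Fgf1 between the models (0.054 with DESeq2, 0.077 with edgeR, and -0.54 to 0.25 with 1 library left out, above 0 without NASH-fib replicate 1), Fgfr2 between the models (0.051 with DESeq2, 0.061 with edgeR, and -0.48 to 0.074 with 1 library left out, above 0 without NASH-fib replicate 3) and Fgfr3 in CCl4-fib against HSCs (-1.03 to 0.19 with 1 library left out, above 0 without HSC replicate 3). The number of ligand and receptor genes called between the models was 1 in place of 2 with a pseudocount of 0.5 and with 2 groups fitted, and 0 to 2 with 1 library left out (0 without CCl4-fib replicate 2 or 3 or NASH-fib replicate 1 or 3). Leaving 1 library out gave 5 to 6 called genes in NASH-fib and 4 to 6 in CCl4-fib against HSCs. Pathway genes called in NASH-fib against HSCs were 12 in place of 21 with the prefix of the library descriptions as a term and 16 to 25 with 1 library left out, and 24 to 37 in place of 33 in CCl4-fib. Between the models they were 15 in place of 7 with DESeq2, 4 with the replicate block and 1 to 8 with 1 library left out (1 without CCl4-fib replicate 2 or NASH-fib replicate 3). The causes were not tested. The replicate number does not pair the samples, 7 of 18 deviations being closest to one of their own number, and the replicate block left the ligand and receptor counts at 5, 6 and 2. The median of all genes between the models moved from -0.11 to 0.14 with edgeR, and calls from 46.7% to 58.8% higher. In CCl4-fib against HSCs that median moved from 0.18 to 0.00. Fgf2, Fgf10 and Fgfr4 are limited by depth, since 3 reads are worth 2.38 to 4.37.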
